A study of Homo sapiens with 4 samples.

Results

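Cyclic nucleotide phosphodiesterases are the enzymes that break down the second messengers cAMP and cGMP. Ligands at Gs-coupled receptors switch on adenylyl cyclases, nitric oxide and natriuretic peptides switch on guanylyl cyclases, and the phosphodiesterases set how far and how long the resulting signal spreads to protein kinase A, protein kinase G and the exchange factors EPAC. In airway epithelium, cAMP is known for its control of fluid secretion, barrier function and cytokine release, and PDE4 and PDE5 are drug targets in lung disease. Some families use cAMP only (PDE4, PDE7, PDE8), some cGMP only (PDE5, PDE6, PDE9), and some both (PDE1, PDE2, PDE3, PDE10, PDE11).

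The 10 genes described here are PDE1A, PDE1C, PDE3A, PDE3B, PDE4B, PDE4D, PDE5A, PDE7B, PDE8A and PDE10A, taken by Ensembl identifier from 58735 rows of a table of read counts per gene. They were chosen by their measured fold changes in the comparison below, as a family seen to hold both rises and falls, so their changes and calls are given as a description, without p-values. The RNA came from A549, an established human lung adenocarcinoma line. The 2 control libraries carry a non-targeting guide and the 2 UHRF1 KO libraries a guide against UHRF1, a chromatin protein that brings DNMT1 to newly replicated DNA so that its methylation is copied. Both guides came in the lentiCRISPRv2-hygro vector followed by hygromycin selection, so all 4 libraries share the lentivirus and the selection. Whether the cells were a pool or a clone, and when RNA was taken, was not stated in the sources used. Nothing in the labels says that the libraries of a group are separate cultures, so the p-values printed for other genes reflect only library-to-library spread, possibly technical.

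Total counts ran from 18604598 to 23977168 per library, so that 1 count is worth 0.0417 to 0.0537 CPM (counts scaled to a common library total). Levels are CPM after TMM scaling, and changes are log2 fold changes of UHRF1 KO against control from the edgeR fit, with an approximate standard error (SE). UHRF1 itself fell from 98.1 ± 0.90 to 39.6 ± 0.79 CPM (SD, n = 2), with an edgeR adjusted p of 3.94e-20. Of 6 epithelial marker genes all were found in every library, with a summed level of 4963 and 4735 CPM in the controls against 3771 and 3749 CPM in the UHRF1 KO libraries. Most of that sum came from KRT8, KRT7 and KRT18. While 5 of the 6 were lower in UHRF1 KO, EPCAM went the other way, from 2.21 ± 0.83 to 9.97 ± 1.09 CPM. Of 16 markers of other cell types, 6 were at 0 in each control library and 2 and 3 in the UHRF1 KO libraries. Their summed level was 13.6 and 14.2 CPM in the controls against 62.1 and 68.6 CPM in the UHRF1 KO libraries, with PECAM1 at 29.9 ± 0.89 and COL1A1 at 15.6 ± 1.16 CPM (SD, n = 2) the main ones there, while the T cell gene CD3E was at 0 in all 4 libraries. The part of these markers in the results below was not tested. In such bulk RNA, fewer cells with a transcript and less of it per cell cannot be told apart.

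The stretches upstream of 3 of the genes are shown first, because their starts differ in the letters that matter to a DNA methylation factor and to a cAMP-responsive factor. RefSeq promoter windows on GRCh38.p14 (250 bases before a start and 50 from it on) were found for 9 of the 10 genes, 37 windows in all, and not for PDE3B. PDE7B, whose level fell, has a single window, and its upstream part (chr6:135851451-135851695, plus strand) holds the full cAMP response element, in capitals, 155 to 148 bases before the start.
PDE7B: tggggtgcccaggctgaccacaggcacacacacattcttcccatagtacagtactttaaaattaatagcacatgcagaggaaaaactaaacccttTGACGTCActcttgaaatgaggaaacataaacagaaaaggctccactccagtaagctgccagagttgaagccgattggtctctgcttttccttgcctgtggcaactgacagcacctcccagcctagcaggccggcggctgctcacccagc
In the next pair the capitals mark CpG, the dinucleotide that is methylated in human DNA. PDE1A fell, and the bases before its most upstream start (chr2:182523307-182523556, minus strand) hold 3 CpG. PDE5A rose, and the bases before the most downstream of its 3 starts (chr4:119627738-119627987, minus strand) hold 20. The PDE5A stretch lies inside the annotated gene, so the pair is not matched in position.
PDE1A: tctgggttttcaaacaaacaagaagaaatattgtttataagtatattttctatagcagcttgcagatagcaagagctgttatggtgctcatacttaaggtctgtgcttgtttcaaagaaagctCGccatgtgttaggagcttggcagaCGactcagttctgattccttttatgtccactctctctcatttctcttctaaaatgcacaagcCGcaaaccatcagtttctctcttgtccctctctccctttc
PDE5A: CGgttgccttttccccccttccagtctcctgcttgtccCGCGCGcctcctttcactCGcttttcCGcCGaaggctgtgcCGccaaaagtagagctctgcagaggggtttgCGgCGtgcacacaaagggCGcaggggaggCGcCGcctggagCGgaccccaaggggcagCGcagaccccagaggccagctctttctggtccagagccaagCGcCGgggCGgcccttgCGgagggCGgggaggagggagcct

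The genes that were lower in UHRF1 KO had starts both poor and rich in CpG. Windows of PDE1A held 0 to 6 CpG, the single windows of PDE3A and PDE7B 0 and 5, those of PDE1C 7 to 36, and those of PDE8A 22 to 44, and all of these genes were lower in UHRF1 KO. The window of PDE3A lies inside the gene, away from its annotated first base. The 3 windows of PDE5A held 13 to 38. Other catalytic phosphodiesterases called higher also had starts both poor and rich in CpG. The single windows of PDE2A and PDE6A held 4 and 0, those of PDE11A 1 to 18 and those of PDE4A 3 to 40. The median over the 37 windows was 7 CpG, against 14 over all 35116 windows of the table. The letters TGACGTCA, which read the same on both strands, stood in 1 of the 37 windows (PDE7B) and in 1.85% of all windows. They also stood in 1 of the 25 windows of the other catalytic phosphodiesterases, in PDE4A, which was higher in UHRF1 KO. The shorter element TGACG, searched on both strands as TGACG or CGTCA and contained in the full one, stood in 3 of the 37 windows (in PDE4D, PDE5A and PDE7B) and in 24.6% of all windows. Gene counts do not show which start the cells used, and methylation was not measured.

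With the edgeR fit, 6 of the 10 genes passed the threshold (Benjamini-Hochberg adjusted p under 0.05) as lower in UHRF1 KO and 1 as higher, where 30.1% and 32.0% of the 17030 genes tested did. Over all genes tested 5445 were called higher and 5118 lower, a split that became 3204 and 9015 with libraries recentred. In the edgeR fit with TMM scaling the 10 genes did not divide evenly, with 3 log2 fold changes positive and 7 negative. With GC content and length trends removed 5 were positive and 5 negative, and with libraries recentred 1 and 9. Both UHRF1 KO libraries lay below both controls for 7 genes and above them for 2, where 38.4% and 41.6% of all genes tested did so. The median log2 fold change was -0.27 over the 10 genes and 0.02 over all genes tested. All 10 passed the filter on low counts, PDE1A through the control libraries alone. Since the genes were picked for this contrast, the counts show nothing beyond the choice. The values of each gene follow by family.

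**Figure D1:**
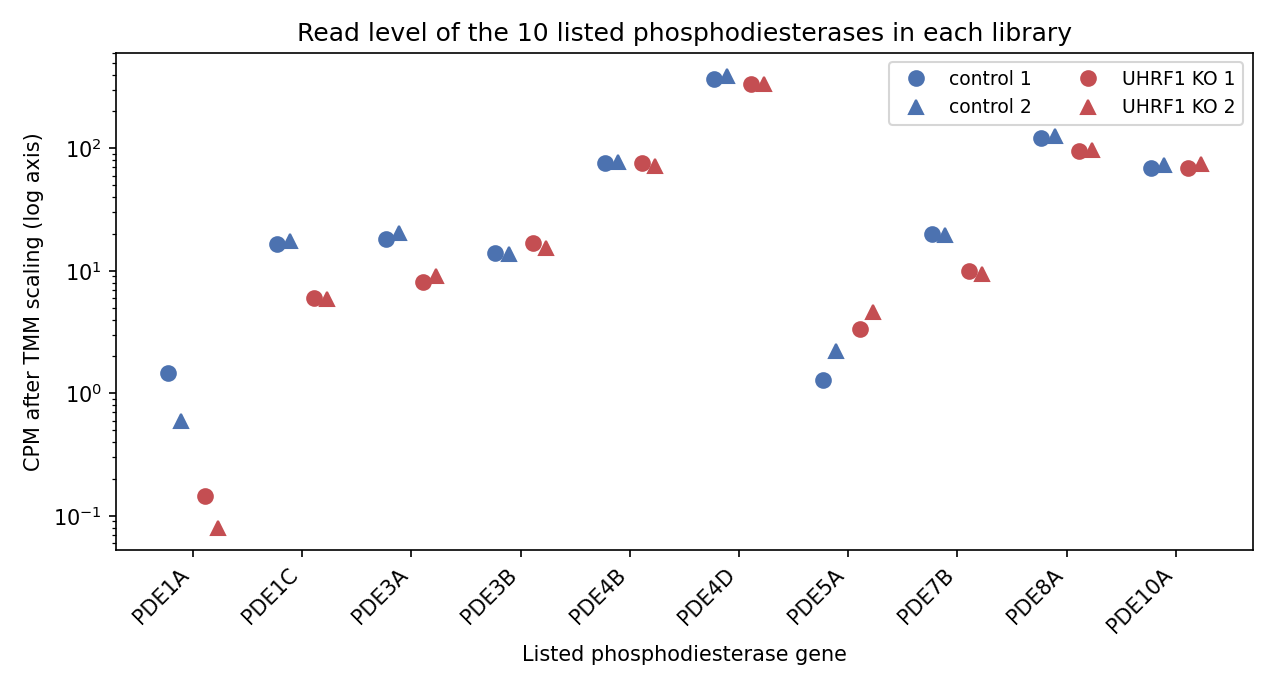
Level of each listed gene in each library, as CPM after TMM scaling on a log axis, with control libraries in blue and UHRF1 KO libraries in red. PDE4D is the highest in all 4 libraries, at 333.6 to 392.4 CPM, PDE1A and PDE5A are the lowest in control, and only for PDE10A do the libraries of the groups overlap.

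PDE1 enzymes hydrolyse both nucleotides and are switched on by calcium and calmodulin. PDE1C (ENSG00000154678, GRCh38 chromosome 7, 31751179 to 32299329, minus strand) was at 16.6 and 17.4 CPM in the controls against 6.02 and 5.86 CPM in the UHRF1 KO libraries, from 297 and 324 counts against 125 and 146. The groups were far apart next to their spread, and the level was 2.87-fold lower, a log2 fold change of -1.52 (SE 0.12). PDE1A (ENSG00000115252, chromosome 2, 182140036 to 182523192, minus strand) was close to the limit of these libraries, with 26 and 11 counts in control and 3 and 2 in UHRF1 KO, or 1.46 and 0.59 against 0.14 and 0.080 CPM. The ratio of the pooled counts was 9.27-fold lower, with a 95% counting interval of 3.64 to 30.2 (exact binomial, counting error only). The control libraries themselves differed by more than the counts of the UHRF1 KO libraries, and the fitted log2 fold change of -3.15 (SE 0.65) became -2.39 without control replicate 1, where the gene was not called.

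PDE3 enzymes hydrolyse cAMP and are inhibited by cGMP, and of the 2 genes of this family 1 passed the threshold. PDE3A (ENSG00000172572, chromosome 12, 20369245 to 20684381, plus strand), known from heart, platelets and vessels, was at 18.3 and 20.6 CPM in the controls against 8.04 and 9.0 CPM in the UHRF1 KO libraries. That is 2.27-fold lower, a log2 fold change of -1.18 (SE 0.11), with no overlap. PDE3B (ENSG00000152270, chromosome 11, 14643723 to 14872044, plus strand), the form known from fat and liver cells, was at 13.9 and 13.6 CPM in the controls against 16.7 and 15.3 CPM in the UHRF1 KO libraries. The UHRF1 KO libraries were both above the controls, but the log2 fold change of 0.22 (SE 0.10) did not pass the threshold. In control the level of PDE3A per library was above that of PDE3B, and in UHRF1 KO it was below, on the CPM scale and per kb of exon alike.

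PDE4 enzymes are specific for cAMP and are the targets of rolipram and roflumilast. PDE4D (ENSG00000113448, chromosome 5, 58969038 to 60522120, minus strand) had the most reads of the family, at 365.2 and 392.4 CPM in the controls against 335.7 and 333.6 CPM in the UHRF1 KO libraries. It was 1.13-fold lower, a log2 fold change of -0.18 (SE 0.037), with means of 378.8 ± 19.2 and 334.7 ± 1.5 CPM (SD, n = 2). The groups did not overlap, and the controls differed more from each other than the UHRF1 KO libraries did. PDE4B (ENSG00000184588, chromosome 1, 65792514 to 66374579, plus strand), the form known for its part in inflammatory signalling, was at 76.5 and 77.3 CPM in the controls against 75.6 and 72.1 CPM in the UHRF1 KO libraries. The log2 fold change of -0.06 (SE 0.052) did not pass the threshold. The annotation lists 29 transcripts of PDE4D and 18 of PDE4B, which code for long and short forms, and a count per gene sums over them.

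PDE5A (ENSG00000138735, chromosome 4, 119494395 to 119628991, minus strand), the cGMP-specific target of sildenafil, was the 1 gene of the 10 that passed as higher. It had 23 and 41 counts in control and 69 and 115 in UHRF1 KO, or 1.29 and 2.21 against 3.32 and 4.62 CPM. The groups did not overlap, but the libraries of each group differed widely, and the log2 fold change of 1.19 (SE 0.26, 2.28-fold) rests on few reads. Its exons share 542 bases with the pseudogene AC093752.1 on the opposite strand, which had more reads (124 and 117 in control, 165 and 206 in UHRF1 KO). Without knowledge of the strand setting, reads of the 2 cannot be told apart there.

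PDE7 and PDE8 enzymes bind cAMP with high affinity and are not inhibited by rolipram. PDE7B (ENSG00000171408, chromosome 6, 135851696 to 136195574, plus strand) was at 20.2 and 19.8 CPM in the controls against 10.1 and 9.40 CPM in the UHRF1 KO libraries, which is 2.05-fold lower (log2 fold change -1.04, SE 0.11). The antisense gene AL138828.1 (chromosome 6, 135991936 to 136225751, minus strand) lies over the far part of PDE7B and shares 452 exon bases with it. It moved the other way, with 27 and 27 counts in control and 303 and 411 in UHRF1 KO, 10.5-fold higher (log2 fold change 3.39, SE 0.17, edgeR adjusted p = 8.96e-18), and was picked out after its values were seen. PDE8A (ENSG00000073417, chromosome 15, 84980440 to 85139145, plus strand) was at 120.9 and 125.3 CPM in the controls against 94.8 and 96.5 CPM in the UHRF1 KO libraries. It was 1.29-fold lower (log2 fold change -0.36, SE 0.046) from 123.1 ± 3.07 to 95.6 ± 1.19 CPM (SD, n = 2), a gap well above the spread within either group. PDE10A (ENSG00000112541, chromosome 6, 165327287 to 165988078, minus strand), a form that hydrolyses both nucleotides and is known from striatal neurons, was at 69.7 and 73.5 CPM in the controls against 69.1 and 74.1 CPM in the UHRF1 KO libraries. Its groups overlapped and its log2 fold change was 0.00 (SE 0.055).

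**Figure D2:**
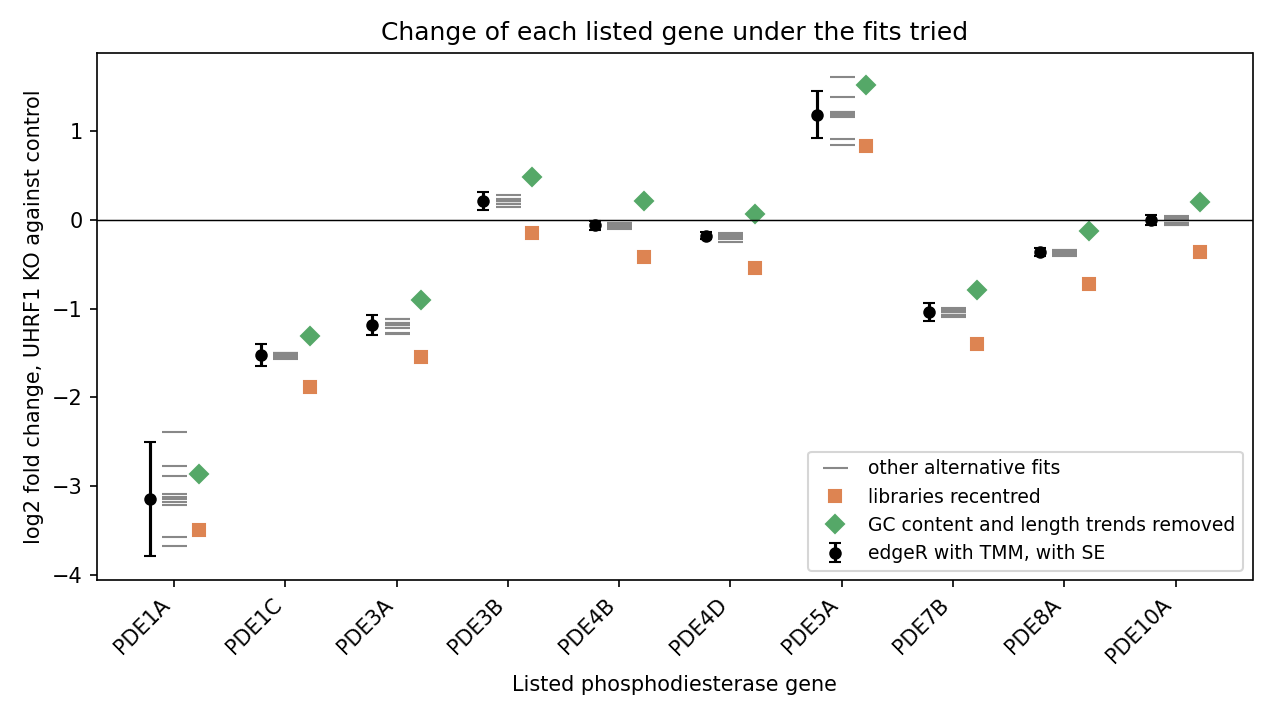
Log2 fold change of each listed gene with the edgeR fit (black, with SE), with libraries recentred (orange squares), with GC content and length trends removed (green diamonds) and with the other alternatives (grey dashes). PDE1A, PDE1C, PDE3A, PDE7B and PDE8A stay below 0 and PDE5A above it in each, while PDE3B, PDE4B, PDE4D and PDE10A lie on both sides.

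The direction of 6 genes was the same in every fit tried, and that of the other 4 was not. Recentring the libraries so that their mean log2 level over all tested genes was equal shifted the median gene by -0.36. It put PDE4B at -0.42, PDE10A at -0.36, PDE3B at -0.14 and PDE4D at -0.54, so that 9 of the 10 were negative. Removing trends with GC content and exon length put the same genes at 0.22, 0.20, 0.49 and 0.07, so that 5 were positive. Over all these fits PDE1C ranged from -1.88 to -1.31, PDE3A from -1.54 to -0.90, PDE7B from -1.40 to -0.79, PDE8A from -0.72 to -0.13 and PDE5A from 0.83 to 1.61.

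Shares within the family do not depend on library scaling, and they show which genes held most of its reads per kb of exon. They describe RNA, and enzyme amount and activity were not measured. The counts of the 21 genes for catalytic subunits were divided by exon length and summed, and each gene was expressed as a percent of that sum. In control PDE4D held 34.9% ± 0.82 (SD, n = 2), PDE8A 23.5% ± 0.058 and PDE4B 13.4% ± 0.27. In UHRF1 KO they held 35.4% ± 0.21, 20.9% ± 0.23 and 14.7% ± 0.52, so with this division the order of the leading 3 was the same in both groups. The 8 cAMP-specific genes together held 85.9%, 86.1%, 86.3% and 85.5% of the sum in the 2 control and then the 2 UHRF1 KO libraries, and the groups overlapped. The cGMP-specific genes held 1.35% to 1.97%.

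Below the leading 3, the listed genes changed places on this scale. In control PDE7B (5.05% ± 0.21) and PDE10A (4.88% ± 0.052) overlapped, followed by PDE3A (3.47% ± 0.20), then PDE1C (1.85% ± 0.011) and PDE3B (1.77% ± 0.078), with PDE5A (0.27% ± 0.093) and PDE1A (0.25% ± 0.15) overlapping at the bottom. In UHRF1 KO PDE10A held 5.61% ± 0.27, PDE7B 2.82% ± 0.14, PDE3B 2.36% ± 0.16, PDE3A 1.75% ± 0.14, and PDE1C (0.74% ± 0.015) overlapped with PDE5A (0.70% ± 0.16), while PDE1A held 0.031% ± 0.012. Parts of this order depend on the division by exon length. Without it PDE10A held 9.23% and 9.28% in the controls, against 2.67% and 2.49% for PDE7B. In UHRF1 KO replicate 2 it then held 10.9%, against 10.6% for PDE4B. PDE3A and PDE3B changed places either way. With the division, the 10 genes together held 89.0% and 89.6% of the sum in control and 85.2% and 84.9% in UHRF1 KO. Among the genes outside the 10, PDE4A went from 1.67% ± 0.074 to 4.54% ± 0.31 and PDE2A from 0.17% ± 0.039 to 1.51% ± 0.17. The sum itself was 65.3 and 67.8 CPM per kb in the controls against 57.9 and 58.1 in the UHRF1 KO libraries, and this total, unlike the shares, follows the scaling.

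**Figure D3:**
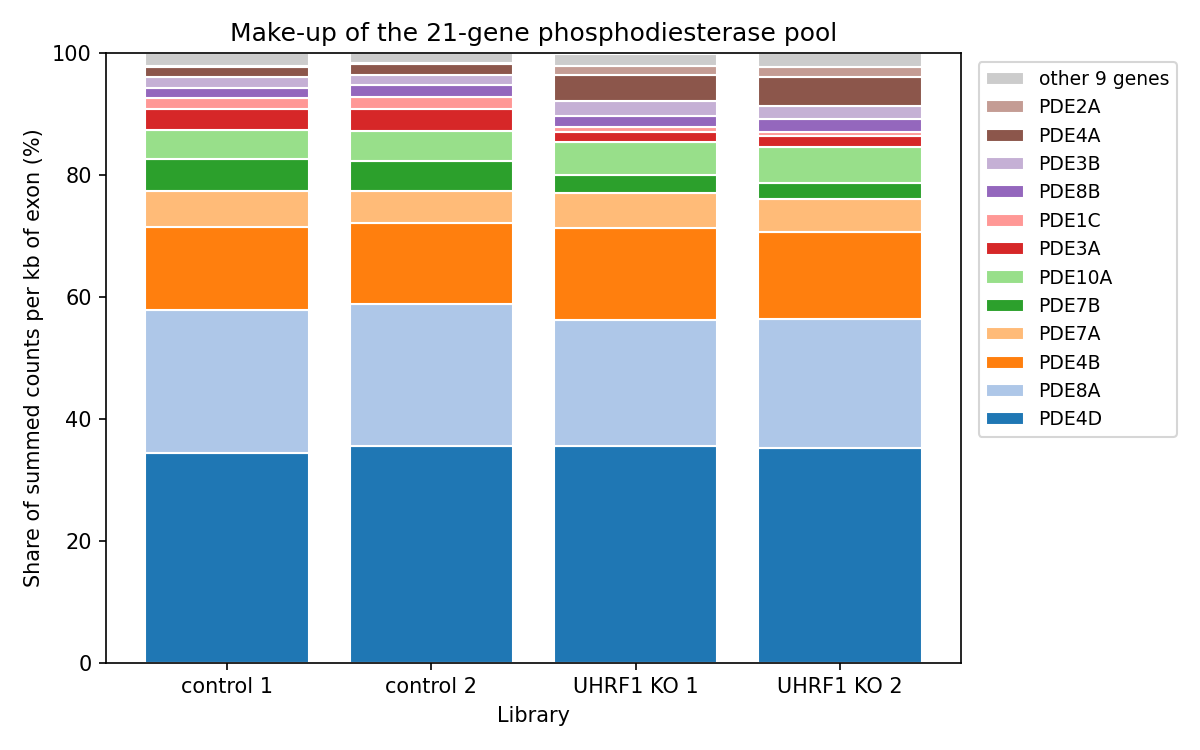
Make-up of the summed counts per kb of exon over the 21 catalytic phosphodiesterase genes in each library, in percent, with the largest genes in separate colours. PDE4D, PDE8A and PDE4B fill most of each bar, the PDE7B, PDE3A and PDE1C segments are thinner in the UHRF1 KO bars, and those of PDE4A and PDE2A are thicker.

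The other 11 catalytic genes complete the family. Of these 8 had enough counts to be tested, and 4 were higher and 2 lower in UHRF1 KO, with a median log2 fold change of 0.55. Over all genes tested 32.0% were called higher and 30.1% lower. These genes are what the choice by change left of the family, so their counts and median are a description. PDE2A, the cGMP-stimulated enzyme, was at 0.67 and 0.97 CPM in the controls against 5.78 and 6.79 CPM in the UHRF1 KO libraries, 7.61-fold higher (log2 fold change 2.93, SE 0.26, edgeR adjusted p = 8.29e-12). PDE4A, another rolipram-sensitive enzyme, was at 7.0 and 7.75 CPM in the controls against 16.6 and 18.4 CPM in the UHRF1 KO libraries, 2.37-fold higher (log2 fold change 1.25, SE 0.12, edgeR adjusted p = 6.26e-11).

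Of the other called genes of this set, PDE6A, PDE11A and PDE9A had few reads, while PDE7A had 499 to 570 counts per library. PDE6A, the rod photoreceptor subunit, had 11 and 5 counts in control and 31 and 36 in UHRF1 KO, and rose 3.31-fold to 1.47 ± 0.033 CPM (edgeR adjusted p = 9.42e-04). It passed the filter on low counts only with the UHRF1 KO libraries, so its call is a description. Its log2 fold change of 1.73 became 2.40 without control replicate 1. PDE11A, a dual enzyme, rose 2.13-fold to 2.13 ± 0.40 CPM (edgeR adjusted p = 0.0047), a call that did not hold with DESeq2 (adjusted p = 0.0543) or when UHRF1 KO replicate 1 was left out (adjusted p = 0.0834), the highest of a range that began at 3.34e-04. PDE9A, a cGMP-specific enzyme of high affinity, fell 2.21-fold, from 3.20 ± 1.10 to 1.42 ± 0.38 CPM (edgeR adjusted p = 8.44e-04). PDE7A, the paralog of PDE7B, fell 1.18-fold, from 28.0 ± 1.60 to 23.8 ± 1.34 CPM (edgeR adjusted p = 0.0146), but its log2 fold change of -0.23 turned to 0.04 (adjusted p = 0.691) with GC content and length trends removed. The call was also lost with DESeq2 (adjusted p = 0.108), without control replicate 1 (adjusted p = 0.0833) and without UHRF1 KO replicate 2 (adjusted p = 0.16). PDE8B at -0.13 and PDE6C at 0.01 did not pass. PDE1B (2 counts in all), PDE4C (16) and PDE6B (2) were not tested.

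The listed genes share features that the choice by change did not name. They are long, spanning 134.6 to 1553 kb with a median of 363.5 kb, where the median of all genes tested was 26.4 kb. Their transcripts had a low GC content, 39.3% to 45.8% with a median of 42.9%, against 49.3% over all genes tested. The other catalytic phosphodiesterases tested lay between, with medians of 110.2 kb and 46.9%, and PDE11A among them spans 449.5 kb. Across all genes tested the median log2 fold change was -0.10 in the quartile with the lowest GC content (up to 43.25%) and 0.25 in that with the highest (from 56.73%). Of the other catalytic genes called higher, PDE2A and PDE4A had 59.2% and 59.5% GC, while PDE6A and PDE11A had 46.5% and 43.9%. Over all the fits tried PDE2A ranged from 2.57 to 3.20 and PDE4A from 0.89 to 1.31. The part of GC content in the changes was not tested beyond the fit with its trend removed.

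**Figure D4:**
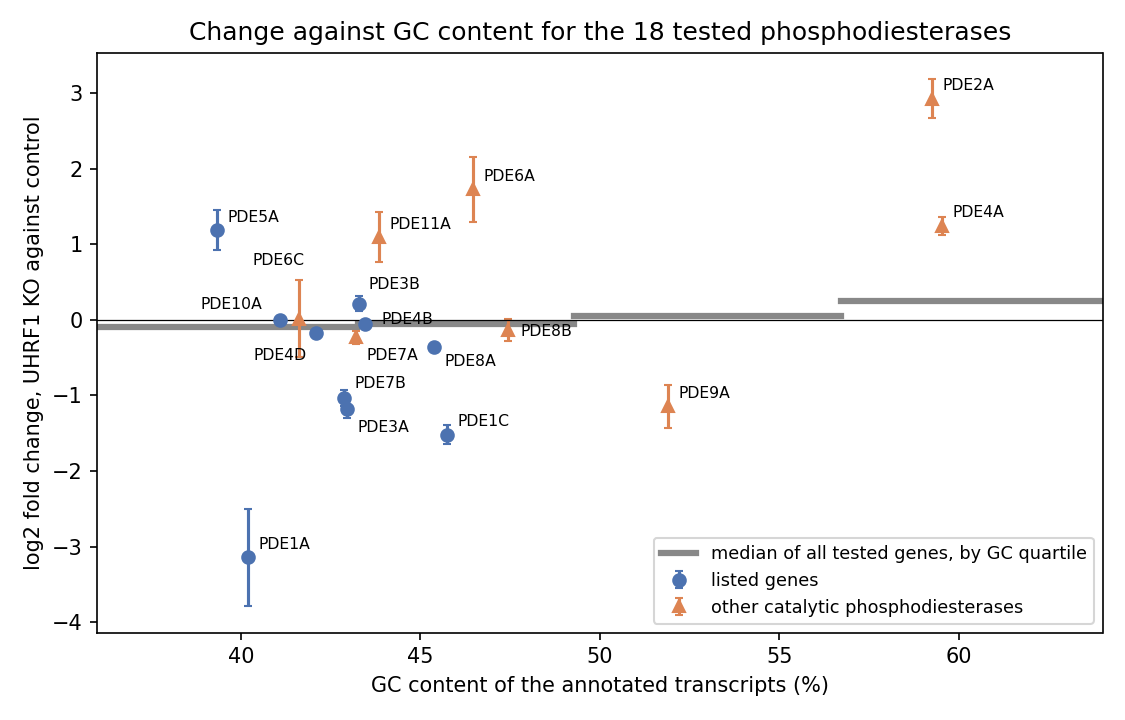
Log2 fold change (with SE) against the GC content of the annotated transcripts for the 18 tested phosphodiesterases, listed genes as blue circles and other catalytic genes as orange triangles, with grey bars for the median of all tested genes in each GC quartile. The listed genes lie between 39.3% and 45.8% GC on both sides of 0, and PDE2A and PDE4A stand at the right, above 1.

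The genes most like a listed gene were sought by distance in log2 CPM (0.5 CPM added) over the 4 libraries, among protein-coding genes tested. For PDE4D, the highest of the genes with a negative change, these were HSPA4 (0.11), PLOD2 (0.13) and PRDX3 (0.13). For PDE10A, the highest with a positive change however small, they were TLK1 (0.038), SHLD2 (0.061) and SELENOS (0.068).

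The rest of cyclic nucleotide signalling was read from lists of its genes, whose counts stand against 32.0% higher and 30.1% lower over all genes tested. The lists were chosen with earlier results of these data known, so their counts and medians are a description and not a test. Of the genes called in these lists, NOS3, RAMP1, PTGIR, CNGB1 and TH passed the filter on low counts only with the UHRF1 KO libraries. So did NOS2, GUCY1B1 and HCN4, which were not called. The adjusted p-values of all these genes and their part in the counts and medians are therefore a description. Recentring moved the lists toward lower calls: 9 lower for synthesis, 2 higher and 14 lower for effectors, 2 higher and 9 lower for anchoring proteins, and 8 lower for the CREB list. The synthesis list holds cyclases, nitric oxide synthases and G proteins, and 18 of its 26 genes were tested. Of these 6 were higher and 5 lower, with a median of 0.09. The lower ones were the cyclase ADCY3 and the G protein genes GNAS, GNAL, GNAI1 and GNAI3. The higher ones were ADCY7, NPR1, NPR2, NOS1, NOS3 and the G protein gene GNAI2. The 4 largest called changes lay on the cGMP side. NOS1, a nitric oxide synthase, was at 22.5 and 22.2 CPM in the controls against 164.3 and 168.2 CPM in the UHRF1 KO libraries, 7.43-fold higher (edgeR adjusted p = 1.38e-29). NOS3, the endothelial synthase, had 2 and 1 counts in control and 151 and 172 in UHRF1 KO, a ratio of 85.9 with a 95% counting interval of 29.1 to 419 (edgeR adjusted p = 9.15e-16). The natriuretic peptide receptors NPR1 and NPR2, which are guanylyl cyclases, rose 3.04-fold to 27.0 ± 1.29 CPM (edgeR adjusted p = 2.24e-15) and 2.70-fold to 9.87 ± 1.43 CPM (edgeR adjusted p = 5.06e-09). Of the soluble guanylyl cyclase, which nitric oxide acts on, GUCY1A1 had 1 count in all 4 libraries together, GUCY1A2 11 to 22 and GUCY1B1 8 to 19 counts per library.

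Of 26 Gs-coupled receptor genes and their partners 12 were tested, and 6 were higher and 1 lower, with a median of 0.62. RAMP1, a partner of the CGRP receptor, had 0 counts in both controls and 65 and 77 in UHRF1 KO, at least 37.8-fold higher if the control group is given 3 counts in all, the limit a count of 0 allows (edgeR adjusted p = 2.21e-11). GIPR, the receptor of the incretin GIP, rose 5.68-fold to 15.7 ± 1.40 CPM (edgeR adjusted p = 7.89e-16). The prostacyclin receptor PTGIR rose 8.61-fold, from 7 and 1 to 35 and 54 counts (edgeR adjusted p = 2.52e-06). Its log2 fold change of 3.11 became 5.01 without control replicate 1 and 2.27 without control replicate 2. The prostaglandin receptor PTGER2 rose 2.12-fold to 3.62 ± 0.060 CPM (edgeR adjusted p = 3.93e-04). PTGER4, another prostaglandin receptor, was the 1 that fell, from 4.88 ± 0.48 to 3.22 ± 0.35 CPM (edgeR adjusted p = 0.0084). DESeq2, and edgeR without UHRF1 KO replicate 2, called 0 receptors lower, with 1 at an unadjusted p under 0.05 in each.

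Of 30 effector genes 21 were tested, with 5 higher, 9 lower and a median of -0.16. The falls included regulatory subunits of protein kinase A: PRKAR2B fell 2.09-fold to 3.05 ± 0.17 CPM (edgeR adjusted p = 7.34e-06) and PRKAR1B fell 1.95-fold to 21.1 ± 1.57 CPM (edgeR adjusted p = 1.99e-12). CNGB1, a subunit of the rod cyclic nucleotide-gated channel, rose 16.3-fold, from 10 and 1 to 116 and 112 counts (edgeR adjusted p = 1.23e-10). Its log2 fold change of 4.03 became 6.38 without control replicate 1 and 3.13 without control replicate 2. Its partner CNGA1 had 0 counts in control and 1 and 3 in UHRF1 KO. RAPGEF3, which encodes EPAC1, rose 2.87-fold to 3.22 ± 0.61 CPM (edgeR adjusted p = 4.17e-05).

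Of 17 anchoring proteins 14 were tested, with 4 higher, 3 lower and a median of -0.03. After removal of the GC content and length trends 1 was lower. AKAP12, the scaffold also called gravin, was at 184.5 and 202.7 CPM in the controls against 295.7 and 290.4 CPM in the UHRF1 KO libraries, 1.51-fold higher (edgeR adjusted p = 2.46e-14), and AKAP2 rose 2.75-fold to 2.80 ± 0.014 CPM (edgeR adjusted p = 7.75e-05). The annotated gene AKAP2 lies within the readthrough gene PALM2-AKAP2 on the same strand, so its reads are uncertain. AKAP1, the mitochondrial anchor, fell 1.19-fold to 86.1 ± 0.85 CPM (edgeR adjusted p = 4.40e-05). GSKIP rose 1.19-fold to 49.0 ± 5.46 CPM (edgeR adjusted p = 0.0031), but was at -0.10 on the log2 scale with libraries recentred and did not pass without control replicate 1 (adjusted p = 0.0587) or UHRF1 KO replicate 1 (adjusted p = 0.196).

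Of 26 CREB factors and genes known to be induced through CREB, 22 were tested, with 14 higher, 5 lower and a median of 0.49. The nuclear receptor genes NR4A1 and NR4A2 rose 7.52-fold to 553.1 ± 2.20 CPM (edgeR adjusted p = 8.06e-33) and 4.33-fold to 108.3 ± 1.76 CPM (edgeR adjusted p = 4.55e-25), and the clock gene PER1 rose 4.0-fold to 48.0 ± 1.08 CPM (edgeR adjusted p = 4.52e-20). PPARGC1A, a coactivator of mitochondrial genes and a known CREB target in liver, went the other way and fell 4.27-fold, from 14.3 ± 1.03 to 3.38 ± 0.53 CPM (edgeR adjusted p = 5.24e-14). Many genes of this list, FOS, FOSB, JUNB and DUSP1 among them, are also induced by MAPK signalling, so the list is not a readout of cAMP alone. The receptor and CREB medians could not move when genes without a control read took their bound as value, since those genes stayed above the median.

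**Figure D5:**
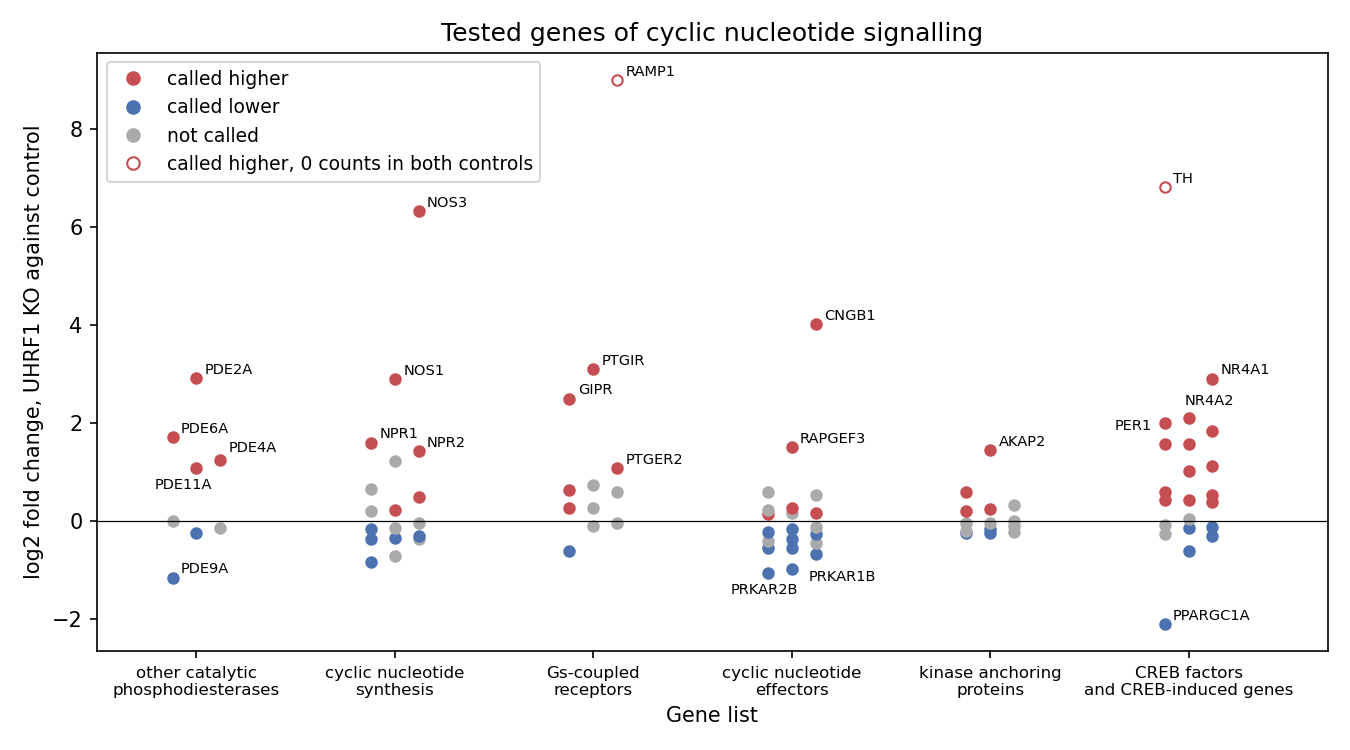
Log2 fold change of each tested gene in 6 lists of cyclic nucleotide signalling, coloured by the edgeR call, with open circles for genes at 0 counts in both controls, whose fitted value is no bound. The synthesis list runs from -0.84 to NOS3 at 6.33, and the CREB list has 14 genes called higher and PPARGC1A lowest at -2.09.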

How the data were processed

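The table deposited by the authors holds raw read counts per gene for 4 RNA-seq libraries of A549 cells. RNA was extracted with Trizol and prepared with the SMARTER mRNA-Seq kit, per the labels' protocols, and FastQC 0.10.1 and GRCh38 are named in the submitters' processing notes; the aligner, counter, strand setting and handling of reads with several matches were not stated in the sources used here. All 58735 identifiers were found in GENCODE 29, which gave symbols, positions, union exon length and transcript GC content. Columns were matched by name; the description of both controls carries number 1, so titles, which do differ in replicate number, settled the control columns.

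Counts were analysed with edgeR 4.0.16 in R 4.3.3 (filterByExpr, 17030 genes, TMM, robust quasi-likelihood test, two-sided, Benjamini-Hochberg, threshold 0.05; 2 residual degrees of freedom; SE was derived as |log2 fold change| divided by the root of F). The biological coefficient of variation was 3.16%. Libraries of a group differed by more than counting noise (chi-square per degree of freedom 2.65 and 1.85). Counting intervals cover counting error only. Alternatives were other scalings and filters, DESeq2 1.42.0, limma-voom with limma 3.58.1, the replicate block, a threshold of 0.01 and leaving out each library. The steps were tested on simulated data. The members and lists were chosen with earlier results of these data known. Named were the 10 genes, the other catalytic phosphodiesterases, UHRF1, up to 4 called genes per pathway list with the largest change at 1 CPM or more, and the 3 nearest genes of 2 members; other genes were picked with their values in view. A second identifier with the symbol PDE11A, at 0 in all libraries, was left out.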

Additional observations from a re-analysis of the deposited data

How the results depend on the processing

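Recentring moved the counts over all genes, and removal of GC content and length trends moved the calls of the 10 genes. With libraries recentred, 3204 of all genes tested were called higher and 9015 lower. Counts over the lists were then 9 lower for synthesis, 2 higher and 14 lower for effectors, 2 higher and 9 lower for anchoring proteins and 8 lower for the CREB list, PDE10A was at -0.36, PDE3B at -0.14, PDE6C at -0.34 and GSKIP at -0.10. With GC content and length trends removed, 5 listed genes were called higher, 1 other phosphodiesterase lower and 1 anchoring protein lower, and the log2 fold changes of PDE4B, PDE4D, PDE7A and PDE8B turned to 0.22, 0.070, 0.040 and 0.047. PDE10A, at 0.00, turned to -0.031 with no filter and -0.00061 with DESeq2, and PDE6C to -0.015 with no filter. With upper-quartile factors 2 listed genes were called higher and 3 CREB genes lower, and with at least 1 CPM in 2 libraries 2 listed genes were higher. DESeq2 called 1 other phosphodiesterase lower, 0 receptors lower (1 at an unadjusted p under 0.05), 2 effectors higher and 3 CREB genes lower. An adjusted p under 0.01 left 1 other phosphodiesterase lower, 2 effectors higher and 3 CREB genes lower. The causes were not tested.

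Leaving out each library in turn gave 1 to 2 other phosphodiesterases lower (1 without control replicate 1 or UHRF1 KO replicate 2), 0 to 2 receptors lower, 3 to 5 effectors higher (3 without control replicate 2 or either UHRF1 KO library), 2 to 4 anchoring proteins higher (2 without UHRF1 KO replicate 1) and 3 to 5 CREB genes lower (3 without UHRF1 KO replicate 2). For the 10 genes it gave 5 to 6 lower and 1 higher, as PDE1A was not called without control replicate 1. Log2 fold changes that crossed 0 in these fits were those of PDE10A (-0.057 to 0.043), PDE6C (-0.31 to 0.40) and PDE8B (-0.33 to 0.052), none of them called. In these fits the lone library is assumed to vary like the other group.

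The replicate numbers are shared only as numbers: the deviations of the same-numbered libraries correlated at -0.026 across genes, and the replicate block gave 5280 higher and 4986 lower of all genes, with 1 and 6 of the 10 genes. Of the alternative values for the 10 genes, 115 kept their direction and side of the threshold, 5 passed it anew, 1 lost it and 8 changed sign (PDE10A in 5 of them). Without division by exon length PDE4D held 49.0% and 49.1% of the family in control and UHRF1 KO, and the cAMP-specific genes 83.1% and 82.7%. With few reads, PDE1A and PDE5A are limited by depth.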
